A study of Homo sapiens with 2 samples.

Results

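The genes described here are the 10 that make microRNAs and carry them to their targets: DROSHA, DGCR8, XPO5, DICER1, TARBP2, the Argonaute genes AGO1, AGO2, AGO3 and AGO4, and TNRC6A. They were found by name in the deposited table of 37364 genes, and each name matched 1 row. All 10 had a mean level of at least 1 RPKM (reads divided by transcript length and library depth), as 13244 genes of the table did. The 10 genes were selected on their RPKM differences in an earlier look at the same 2 libraries, in which the group was lower with clusterin, so these differences are a description and have no test.

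The series compared D407 cells, a human line labelled as retinal pigment epithelium (RPE), treated with clusterin, a secreted chaperone glycoprotein, with control cells, each as 1 RNA library prepared with oligo(dT) beads. All cells came from 1 line grown with serum; the labels give neither a dose nor a time of treatment. With 1 library per group, no difference had a replicate check, and every interval below is an exact Clopper-Pearson interval at 95% that covers counting error only. Library totals recovered from the levels were 38237002 reads for control and 33177118 for clusterin. Fewer cells of a type and less RNA per cell cannot be told apart in such RNA. Of the 8 RPE and pigment cell markers, 5 were listed at 0 in both libraries (RPE65, RLBP1, LRAT, TTR and TYR), and only BEST1 and MITF reached a mean of 1 RPKM, whereas the 4 simple keratins KRT7, KRT8, KRT18 and KRT19 all did, with RPKM ratios of clusterin to control from 0.970 for KRT18 to 1.09 for KRT19. CD68 and DCN, listed as leukocyte and fibroblast markers, stood at 6.17 and 25.9 RPKM in the control library, but the fibroblast markers COL1A1 and COL1A2 only at 1.15 and 0.034, and PTPRC was listed at 0; the part of other cell types in these results was not tested.

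MicroRNAs are short RNAs that direct the silencing of messenger RNAs. In the nucleus the Microprocessor, made of the ribonuclease DROSHA and its RNA-binding partner DGCR8, cuts a hairpin out of the primary transcript. Exportin 5 (XPO5) carries the hairpin to the cytoplasm, where DICER1, with its partner TARBP2, trims it to a duplex. An Argonaute protein keeps 1 strand, pairs it with a target and, through a GW182 protein such as TNRC6A, recruits the enzymes that shorten and decap the target.

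TARBP2 had the highest level of the 10 genes and AGO4 the lowest. In the control library the order was TARBP2 at 11.2 RPKM, XPO5 at 10.9, DROSHA at 10.8, AGO2 at 9.44, AGO1 at 7.31, DGCR8 at 6.93, TNRC6A at 4.65, DICER1 at 3.89, AGO3 at 3.75 and AGO4 at 2.11. The clusterin library had the same order, from TARBP2 at 11.5 RPKM to AGO4 at 1.61. Several neighbours in that order could not be separated by counting error: the control intervals of TARBP2 (10.4 to 11.9 RPKM), XPO5 (10.4 to 11.3) and DROSHA (10.4 to 11.3) overlapped, as did those of AGO1 (6.999 to 7.63) and DGCR8 (6.54 to 7.34), and those of DICER1 (3.70 to 4.08) and AGO3 (3.43 to 4.08). Among the 13244 measured genes the 10 were of middling abundance, with AGO4 at percentile 15.1 of mean level and TARBP2 at percentile 70.4. Levels are per length, and the lengths recovered from the values, which need not match the transcript these cells use, ran from 1988 bases for TARBP2 to 10602 for DICER1.

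**Figure D1:**
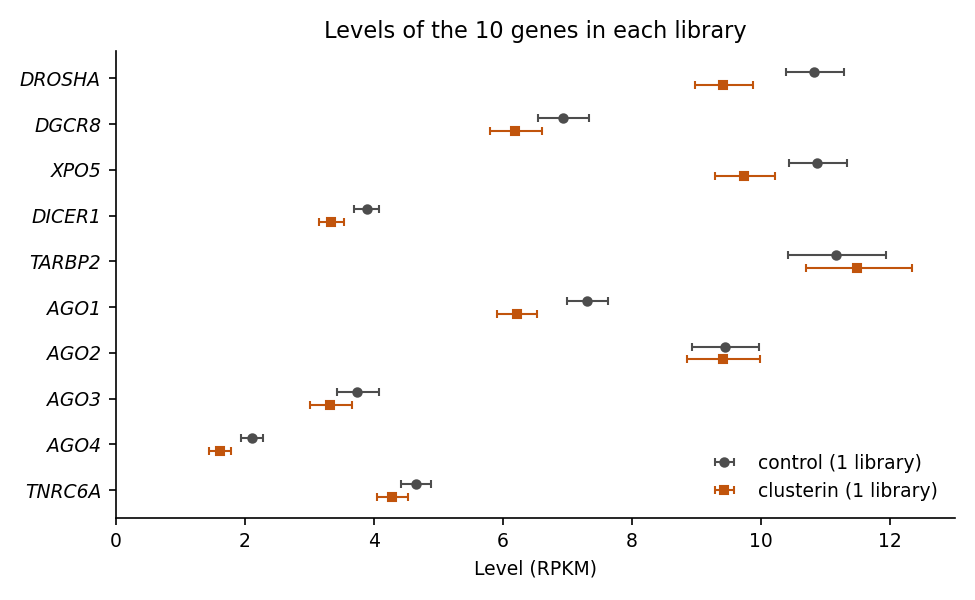
Levels in RPKM (horizontal axis) of the 10 genes in the control library (grey circles) and the clusterin library (orange squares); bars are 95% counting intervals. The clusterin point lies left of the control point for every gene but TARBP2, and the 2 points of AGO2, 9.44 and 9.40 RPKM, nearly coincide.

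Between the libraries, 9 of the 10 genes had a smaller value with clusterin, by small amounts, and none reached 2-fold. The difference used here is log2((clusterin RPKM + 1)/(control RPKM + 1)), a scale that understates the change of low genes. Its median over the 10 genes was -0.14, against -0.06 over all measured genes. Of all measured genes 70.2% were also below 0, so most of the table leaned the same way. The 10 genes had 8 members below the all-gene median, where the share of all genes is 50% by construction. At or below -0.1 lay 7 members, against 34.8% of all genes, and at or below -0.2 lay 2, AGO1 and AGO4, against 11.1% of all genes. The count of 7 became 4 with a pseudocount of 5, with the control rescaled or with quantile normalization. AGO4 was at -0.37 with a pseudocount of 0.1 and -0.10 with 5, and AGO1 at -0.23 and -0.13. With the control rescaled AGO4 alone lay at or below -0.2, at -0.20 against -0.14 for AGO1, and with quantile normalization neither did, at -0.19 and -0.15. A 2-fold difference in either direction was seen for 0.219% of all genes. Since the genes were taken up for this contrast, nothing is read from these counts. With the control library rescaled so that the median log2 ratio was 0, the all-gene share below 0 became 50% by construction, the median of the members became -0.08, and 8 of the 10 members stayed below 0; AGO2 then moved from just below 0 to 0.06, and to 0.05 with quantile normalization.

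Counting error was set against the wider spread of genes with as many reads. The members had 924 to 3992 reads over both libraries, and 5139 measured genes lay in that range. Their median RPKM ratio of clusterin to control was 0.945, and the robust SD of their log2 ratio was 0.106, which is 1.56 times the counting SD of 0.0678. The interval of the ratio lay wholly below 1 for 7 members, against 31% of those genes, and wholly above 1 for 0 members, against 4.48%. It lay wholly below the median ratio of 0.945 for 4 members, AGO1, AGO4, DICER1 and DROSHA, against 9.28% of those genes, and wholly above it for 0 members, against 15.3%. In the authors' deposited table, q was below 0.05 for 5 members, all lower with clusterin (these 4 and XPO5), against 10.4% of the genes above 0 called lower and 1.63% called higher. Among the genes with as many reads, the authors' deposited table called 15.9% lower. Those q-values compare 2 libraries and hold no replicate error.

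**Figure D2:**
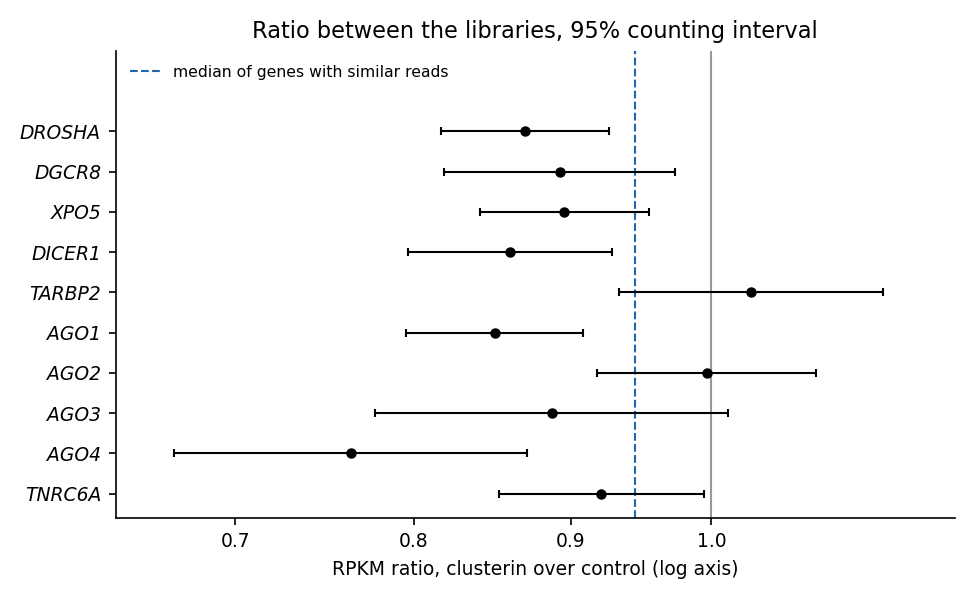
Ratio of clusterin to control RPKM for each gene (log axis), with its 95% counting interval; the solid line marks a ratio of 1 and the dashed line the median of 0.945 over 5139 genes with as many reads. The intervals of DROSHA, DICER1, AGO1 and AGO4 end left of the dashed line, and those of TARBP2 and AGO2 span both lines.

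In the Microprocessor, both subunits were lower with clusterin by similar fractions. DROSHA (chromosome 5, 31400494 to 31532175, GRCh38) had 10.8 RPKM in control cells and 9.41 in treated cells. Its 2275 and 1717 reads gave an RPKM ratio of 0.870 (0.817 to 0.926). DGCR8 (chromosome 22, 20080232 to 20111877) had 6.93 RPKM in control cells and 6.19 in treated cells. The 1198 and 928 reads behind these levels gave a ratio of 0.893 (0.819 to 0.973). The control and clusterin counting intervals of the level did not overlap for DROSHA and overlapped for DGCR8. The ratio interval of DGCR8 held the median ratio of 0.945 of genes with as many reads, and that of DROSHA lay below it. On the log2 scale with pseudocount the differences were -0.18 and -0.14, and the ratio of DROSHA to DGCR8 level was 1.56 in the control and 1.52 with clusterin.

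DGCR8 is itself a known Microprocessor substrate, because its transcript holds hairpins that are annotated as microRNA genes. The mature sequences of these hairpins, from RefSeq on GRCh38.p14, are shown because reads over them come from the DGCR8 locus; capitals mark the seed, bases 2 to 8.
hsa-miR-3618: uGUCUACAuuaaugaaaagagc
hsa-miR-1306-5p: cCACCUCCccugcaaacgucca
hsa-miR-1306-3p: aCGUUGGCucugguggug
The first lies at chr22:20085797-20085818 and the others at chr22:20086072-20086093 and chr22:20086112-20086129, all on the plus strand, as DGCR8. Each of the 3 seeds occurs in 1 of 2545 mature microRNAs of the table. MIR1306 had 8.31 RPKM in control cells (27 reads) and 6.74 in treated cells (19 reads), a ratio of 0.811 (0.426 to 1.51). MIR3618 had 2.38 RPKM (8 reads) and 2.06 RPKM (6 reads), a ratio of 0.864 (0.247 to 2.84). Both ratios leave room for a difference in either direction at this depth. The library was made from long RNA, so these reads do not measure mature microRNAs and can be DGCR8 messenger RNA.

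XPO5, the export receptor of the hairpins (chromosome 6, 43522330 to 43576075), had 10.9 RPKM in control cells and 9.74 in treated cells. Its 2230 and 1733 reads gave a ratio of 0.896 (0.841 to 0.954), and the intervals of the 2 levels did not overlap. The ratio interval held the median ratio of 0.945 of genes with as many reads. In the table its span overlaps POLR1C on the opposite strand by 28655 bases, and as the strand setting of the counting was not given, reads of the 2 genes cannot be told apart where their exons meet. POLR1C stood at 18.8 and 16.7 RPKM.

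The bases just before the outermost RefSeq start are shown for DROSHA, DGCR8 and XPO5, which act in the nuclear steps. Of the members with a promoter entry at that start, these 3 have such bases in no RefSeq gene. The entries of AGO1, AGO3, AGO4 and TNRC6A lie at other starts, so the bases before their outermost start were not examined. The stretches run 5′ to 3′ along each gene and stop where another RefSeq gene begins. Capitals mark every match on either strand to any of 4 motifs, and overlapping matches run together. The GC box known as a site of Sp1 factors was searched as GGGCGG. The box bound by the NF-Y factor was searched as CCAAT. The core of the sites bound by ETS factors was searched as CCGGAA. The TATA box was searched as TATAAA.
DROSHA promoter: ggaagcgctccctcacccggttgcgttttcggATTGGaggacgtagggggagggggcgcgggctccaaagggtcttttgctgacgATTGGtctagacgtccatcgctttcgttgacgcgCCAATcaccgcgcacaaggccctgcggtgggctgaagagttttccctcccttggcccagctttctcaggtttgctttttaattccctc
DGCR8 promoter: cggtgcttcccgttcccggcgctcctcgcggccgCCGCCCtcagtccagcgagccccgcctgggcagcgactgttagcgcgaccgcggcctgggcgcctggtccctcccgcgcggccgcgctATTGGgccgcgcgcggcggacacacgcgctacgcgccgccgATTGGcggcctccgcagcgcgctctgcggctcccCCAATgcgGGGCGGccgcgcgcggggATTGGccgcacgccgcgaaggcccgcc
XPO5 promoter: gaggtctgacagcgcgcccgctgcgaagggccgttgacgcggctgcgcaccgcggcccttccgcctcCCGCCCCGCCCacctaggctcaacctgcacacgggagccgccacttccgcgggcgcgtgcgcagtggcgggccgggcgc
They lie on GRCh38.p14 at chr5:31532094-31532300 (minus strand), chr22:20079991-20080240 (plus strand) and chr6:43576039-43576184 (minus strand). DROSHA holds 3 CCAAT matches in 207 bases and DGCR8 holds 4 in 250 bases, where 28.6% and 32.0% of all 35116 promoter windows, trimmed to the same length, hold at least 1. XPO5 holds none in 146 bases. GC boxes number 2 in DGCR8 and 2, overlapping, in XPO5, where 42.6% and 36.4% of windows hold at least 1, and DROSHA has none in this stretch. None of the 3 has a TATA or ETS match. The 250-base windows were rich in GC, at 62.0% for DROSHA, 80.0% for DGCR8 and 72.4% for XPO5, against a median of 58.0% over all windows. A match is a string of letters and no evidence of a bound factor. The genes that begin on the other side of these stretches were named after the sequences were read: C5orf22, opposite DROSHA, stood at 8.54 and 9.01 RPKM (log2 0.07), and POLH, opposite XPO5, at 3.88 and 3.37 (log2 -0.16).

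In the Dicer step the value of the enzyme was smaller with clusterin and that of its partner was not. Their ratio intervals, which hold no replicate error, did not overlap but came close, at 0.928 and 0.933. DICER1 (chromosome 14, 95086228 to 95158010), the ribonuclease that cuts the exported hairpin, had 3.89 RPKM in control cells and 3.34 in treated cells. Its 1576 and 1176 reads gave a ratio of 0.860 (0.797 to 0.928), and the intervals of the 2 levels did not overlap. TARBP2 (chromosome 12, 53500203 to 53506431), a double-stranded RNA-binding protein, had 11.2 RPKM in control cells (848 reads) and 11.5 in treated cells (758 reads), a ratio of 1.03 (0.933 to 1.14). It was the one member above 0, at log2 0.04, and its interval held both 1 and the median ratio of 0.945. The ratio of DICER1 to TARBP2 level was thus 0.348 in the control and 0.291 with clusterin. DICER1-AS1, an antisense transcript that overlaps DICER1 by 323 bases, had 32 and 14 reads.

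Of the Argonautes, AGO1 and AGO4 were lower with clusterin by more than counting error, and the ratio intervals of AGO2 and AGO3 included 1. AGO2 (chromosome 8, 140520156 to 140642326), the Argonaute best known for cutting its targets, had 9.44 RPKM in control cells and 9.40 in treated cells. Its 1263 and 1092 reads gave a ratio of 0.996 (0.918 to 1.08). AGO1 had 7.31 RPKM in control cells (2090 reads) and 6.22 in treated cells (1542 reads), a ratio of 0.850 (0.796 to 0.909), an interval wholly below that of AGO2. For AGO3 the levels were 3.75 RPKM (522 reads) and 3.32 RPKM (402 reads), a ratio of 0.888 (0.777 to 1.01), which overlaps that of AGO2. For AGO4 they were 2.11 RPKM (569 reads) and 1.61 RPKM (377 reads), a ratio of 0.764 (0.669 to 0.871), the lowest of the 10 genes. The intervals of the 2 levels did not overlap for AGO1 and AGO4. Of all measured genes, 6.24% had a difference as low as that of AGO4 or lower, and 10.6% one as low as that of AGO1.

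AGO4, AGO1 and AGO3 are neighbours. On RefSeq's GRCh38 map AGO4, AGO1 and AGO3 follow each other on the plus strand of chromosome 1, with 11871 bases between AGO4 and AGO1 and 186 between AGO1 and AGO3. The table lists AGO4 at 35807630 to 35857890, AGO1 at 35869791 to 35924298 and AGO3 at 35923403 to 36056747. As listed there, AGO1 and AGO3 overlap by 896 bases on the same strand, and the listed start of AGO3 lies 7315 bases from that of RefSeq, so how reads near their junction were divided is uncertain.

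By level, AGO2 made up 41.8% of the summed Argonaute RPKM in the control and 45.8% with clusterin. AGO1 made up 32.3% and 30.2%, AGO3 16.6% and 16.2%, and AGO4 9.33% and 7.83%. The sum itself was 22.6 and 20.6 RPKM. The order of shares was AGO2, AGO1, AGO3 and AGO4 in both libraries. By reads, without division by length, AGO1 led with 47.0% and 45.2% and AGO2 followed with 28.4% and 32.0%, because the recovered length of AGO1 was 7478 bases and that of AGO2 3500. Which of the 2 leads therefore rests on the transcript lengths. The share of AGO2 was larger in treated cells by both measures. That follows from AGO2 having the highest ratio of the Argonautes, so the 2 measures are not separate support.

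**Figure D3:**
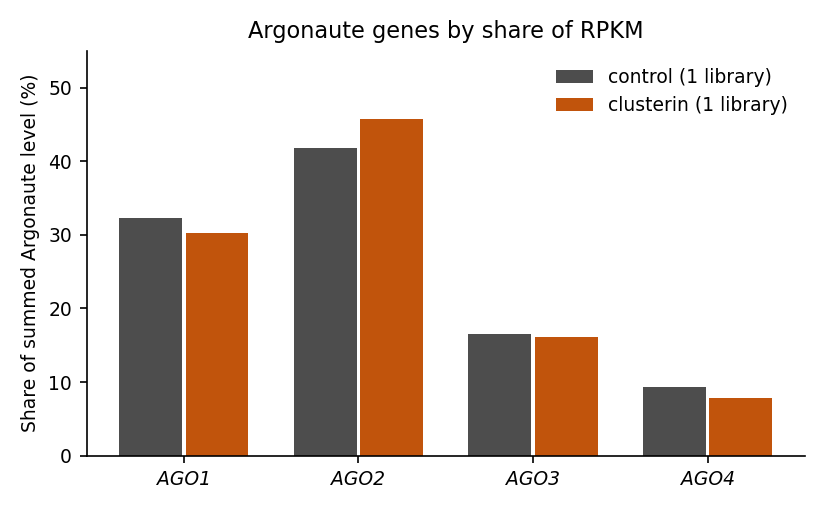
Share of the summed RPKM of AGO1 to AGO4 held by each gene, in percent, in the control library (grey bars) and the clusterin library (orange bars); there is 1 library per bar and no error bar. AGO2 has the largest share in both, 41.8% and 45.8%, and AGO4 the smallest, 9.33% and 7.83%.

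Of the GW182 genes, whose proteins link Argonaute to the deadenylases, TNRC6A (chromosome 16, 24729714 to 24826227 in the table, whose start lies inside the longer RefSeq gene) had 4.65 RPKM in control cells and 4.28 in treated cells. Its 1498 and 1197 reads gave a ratio of 0.921 (0.853 to 0.994), and the intervals of the 2 levels overlapped. The ratio interval held the median ratio of 0.945 of genes with as many reads. TNRC6B had 3.30 and 3.02 RPKM, at a ratio of 0.917 (0.862 to 0.975), close to that of TNRC6A. TNRC6C had 0.182 RPKM (68 reads) and 0.126 RPKM (41 reads), below the minimum of 1 RPKM. TNRC6A held 57.2% of the summed GW182 RPKM in the control and 57.6% with clusterin, and by reads, without division by length, 38.2% and 38.5%, behind TNRC6B with 60.1% and 60.2%. Which of the 2 leads rests on the transcript lengths, and the shares were nearly the same in both libraries by either measure.

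Longer transcripts had slightly lower median differences among the measured genes. Among measured genes with a recovered length, the median difference was -0.06 for 4542 genes under 2 kb, -0.07 for 4266 genes of 2 to 4 kb, -0.08 for 2015 genes of 4 to 6 kb and -0.08 for 1425 genes over 6 kb. Without the minimum of 1 RPKM the 4 medians were closer and not in order, at -0.053, -0.052, -0.062 and -0.061. The 2 members with the highest differences, TARBP2 with 1988 bases and AGO2 with 3500, had the shortest recovered transcripts of the 10, and 4 members, AGO1, AGO4, DICER1 and TNRC6A, were over 6 kb. Within their own length class, 7 of the 10 members lay below the lower quartile of measured genes, which was -0.13 both at 4 to 6 kb and over 6 kb. The exceptions were TARBP2, AGO2 and TNRC6A, and AGO3 lay only just below its quartile, at -0.1341 against -0.1307. Since the members were selected on these same differences, nothing is read from this count. The part of transcript length in the difference of the members was not tested.

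**Figure D4:**
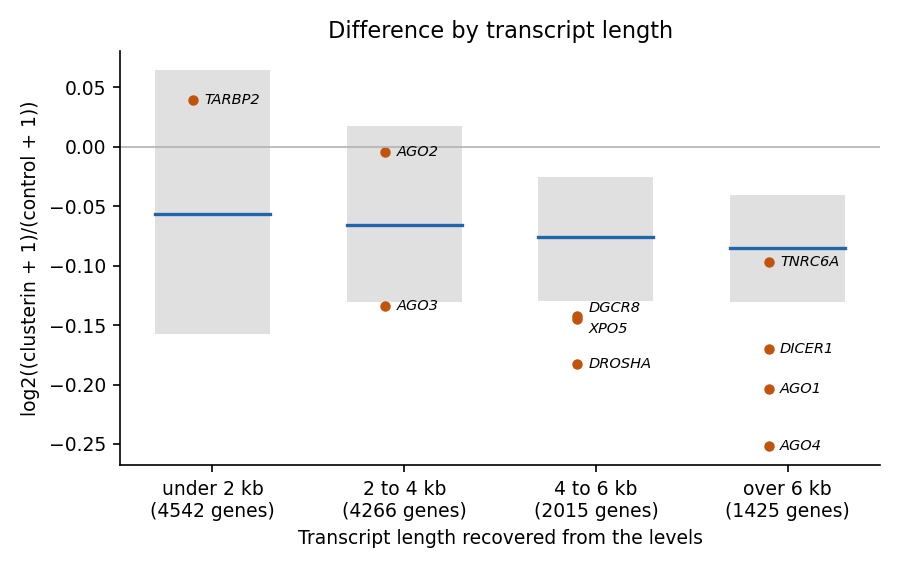
Difference between the libraries, log2((clusterin RPKM + 1)/(control RPKM + 1)), in 4 classes of transcript length; grey boxes span the middle 50% of measured genes, blue lines are medians, and orange points are the members. Medians go from -0.06 to -0.08 with length, and 7 of the 10 points lie under their box.

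The other genes of the pathway were listed by role. Of 73 such genes 64 reached a mean of 1 RPKM, and their median difference was -0.08, against -0.14 for the 10 members and -0.06 for all genes. Below 0 lay 50 of the 64, against 70.2% of all genes, and 25 lay at or below -0.1, against 34.8%. None was past 2-fold. In the authors' deposited table, q was below 0.05 for 26 lower and 2 higher genes among the 64, against 10.4% and 1.63% of all genes above 0. The 2 sets are unlike: the genes above 0 include those under 1 RPKM, whereas some of the 64 had very many reads, such as RAN with 24718. No share was computed for genes with as many reads as the 64, so nothing is read from these counts.

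Among proteins that help the Microprocessor, 10 of 10 genes lay below 0, against 70.2% of all genes, with a median of -0.09 that became -0.019 with the control rescaled. The lowest were ERH, a small dimeric cofactor, at 74.7 and 67.9 RPKM (log2 -0.14), and ILF2, a nuclear protein, at 82.3 and 74.8 (log2 -0.14). The highest were SAFB, a nuclear scaffold protein, and DHX9, an RNA helicase, at log2 -0.01 and -0.03. The export and Dicer partners had 5 of 6 below 0, against 70.2% of all genes. The median of that list was -0.09, which became -0.024 with the control rescaled and -0.039 with quantile normalization. WTIP, a LIM protein, stood at 2.09 and 1.56 RPKM (log2 -0.27) and ADAR, which edits adenosines in double-stranded RNA, at 38.8 and 35.2 (log2 -0.14). PRKRA, a relative of TARBP2 that also binds DICER1, stood at 4.59 and 4.97 RPKM, at a ratio of 1.08 (0.935 to 1.25), and AJUBA at 7.88 and 7.86.

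Chaperones and cofactors of Argonaute spread to both sides, with 10 of 17 below 0, against 70.2% of all genes. The median of that list was -0.06, which became 0.0053 with the control rescaled and 0.0025 with quantile normalization. MOV10, an RNA helicase found with Argonaute, stood at 8.37 and 6.89 RPKM, at a ratio of 0.824 (0.752 to 0.901), and FMR1, the fragile X RNA-binding protein, at 5.25 and 4.46 (log2 -0.20). TSNAX, a subunit of the nuclease that clears passenger strands, stood at 8.73 and 9.96 RPKM, at a ratio of 1.14 (1.04 to 1.25), and CDC37, a co-chaperone of HSP90, at 76.8 and 82.1 (log2 0.09).

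The enzymes that act on silenced targets included CNOT9 and PAN3, the lowest of the 64 genes by log2 difference with a pseudocount of 1; by ratio WTIP was lower, at 0.747. Of 13 deadenylase genes 11 lay below 0, against 70.2% of all genes, and the median of the 13 was -0.09. CNOT9, a subunit of the CCR4-NOT complex that binds GW182 proteins, stood at 9.38 and 7.34 RPKM, at a ratio of 0.782 (0.719 to 0.850) and log2 -0.32. PAN3, a subunit of the PAN2-PAN3 deadenylase, stood at 2.94 and 2.25 RPKM, at a ratio of 0.767 (0.676 to 0.868). At the other end CNOT3 was at log2 0.06 and CNOT10 at 0.01. Of 10 measured decapping and decay genes 8 lay below 0, against 70.2% of all genes. The median of that list was -0.15, close to the -0.14 of the 10 members. It was -0.073 with a pseudocount of 5 and -0.069 with a mean of at least 5 RPKM. EIF4ENIF1, which binds the cap factor eIF4E, stood at 2.51 and 2.00 RPKM (log2 -0.23) and LSM1, of the ring that binds deadenylated ends, at 11.3 and 9.53 (log2 -0.23). EDC4, a scaffold of the decapping enzyme, stood at 7.71 and 8.47 RPKM, at a ratio of 1.10 (1.02 to 1.18), and PATL1 at log2 0.08.

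**Figure D5:**
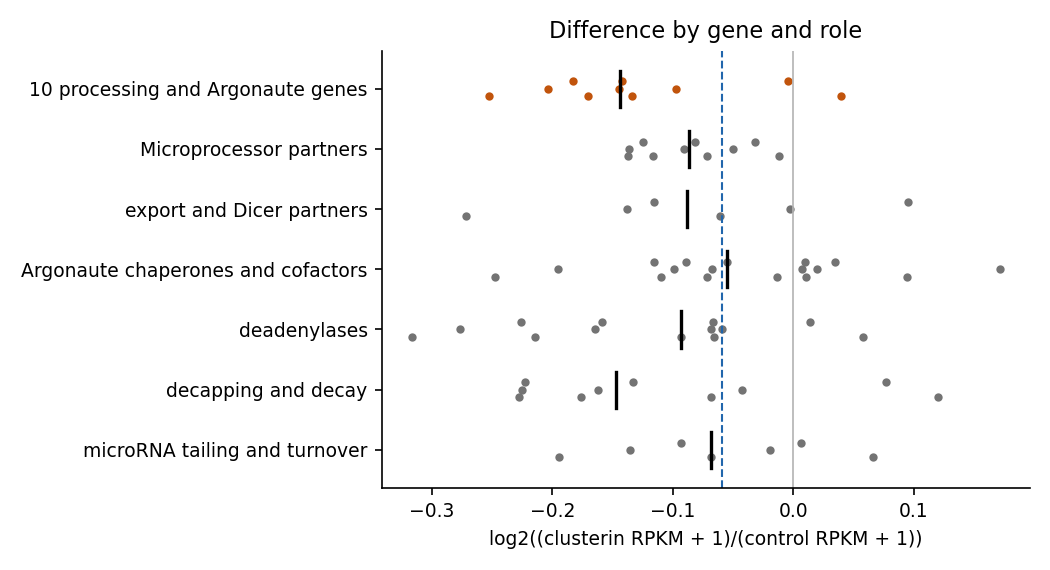
Difference between the libraries on the log2(RPKM + 1) scale for each measured gene (points), by role, with the median of each list (black bars); the dashed line is the median of all measured genes, -0.06. The 10 processing and Argonaute genes (orange) and the decapping genes have medians of -0.14 and -0.15, and each of the 7 groups drawn has genes on both sides of the dashed line.

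MicroRNA tailing and turnover genes had 5 of 7 measured members below 0, close to the 70.2% of all genes. The median of that list was -0.07, which became -0.013 with the control rescaled and 7.03e-05 with quantile normalization. TENT2, a cytoplasmic poly(A) polymerase, stood at 4.89 and 4.15 RPKM (log2 -0.19) and TUT7, a uridylyltransferase, at 4.56 and 4.06 (log2 -0.14). ZSWIM8, of the ligase that destroys Argonaute during target-directed microRNA decay, was at 5.57 and 5.88 (log2 0.07), and XRN2 at log2 0.01. LIN28A and LIN28B, which act on let-7 in embryonic and some tumour cells, were listed at 0 in both libraries, as was TRIM71. Of the PIWI genes, germline relatives of Argonaute, PIWIL1, PIWIL3 and PIWIL4 were listed at 0, and PIWIL2 had 6 and 1 reads.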

How the data were processed

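Each gene has an RPKM level in either library that the authors deposited beside their own log2 fold change, p-value and q-value. The unit is not in the header and was inferred: level times length times 1 library total was whole within 0.02 for 455 of 494 small RNA genes of 1 exon. Bowtie, TopHat and Cuffdiff and the build hg19 are named in the submitters' processing notes; versions and strand setting are not stated there. Listed starts of 8 members lie within 720 bases of those of RefSeq on GRCh38, although hg19 is the build named; those of AGO3 and TNRC6A lie 7315 and 119509 bases away.

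Reads and transcript lengths were recovered for 92.2% of 20642 genes above 0, as the length at which both levels gave whole reads and the authors' deposited p-value within 2%. The formula used was that of Audic and Claverie, a count test between 2 libraries. It gave the deposited p-value within 2% for 446 of the 455 small RNA genes with whole reads, although the processing notes name Cuffdiff. For each member 1 length passed. The step was tested on simulated reads of 1500 genes already recovered, with the same formula and library totals. It recovered 82.1% of them, and 100% of those were right. Such a test cannot reveal a wrong formula or total. A read here may be a read pair.

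Differences were log2((clusterin RPKM + 1)/(control RPKM + 1)) for genes whose mean over both libraries was 1 RPKM or more. With 1 library per group no test was made. The members and lists were chosen with earlier results of these data known. Named were all members and, of each list with at least 5 measured genes, the 2 highest and 2 lowest; of smaller lists, all. CNOT9, TUT7 and TENT2 are listed in the table as RQCD1, ZCCHC6 and PAPD4. Promoters (9 of 10 members matched) and microRNAs came from RefSeq tables on GRCh38.p14. Work was done in Python 3.11.15 with SciPy 1.17.1.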

Additional observations from a re-analysis of the deposited data

How the results depend on the processing

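The median difference of the 10 genes was below 0 under all settings tried, from -0.16 with a pseudocount of 0.1 to -0.08 with the control rescaled. It ran from -0.145 to -0.142 with any 1 member left out. With 9 of the 10 genes below 0, leaving out 1 could not change that sign. The genes were also selected as lower with clusterin, so nothing is read from it. A pseudocount or a minimum level cannot change the sign of a gene, so only the rescaled control and quantile normalization could do so. Under those scalings 9 members kept their sign and AGO2 did not. Members at or below -0.1 numbered 7 as reported and 4 with a pseudocount of 5, with the control rescaled, with quantile normalization, or with a mean of at least 5 RPKM, where only 6 members were measured, 5 of them below 0 and 4 below the all-gene median. With the control rescaled, the Microprocessor partners had a median of -0.019 and the deadenylases -0.028, and with quantile normalization the deadenylases had -0.043. The medians of the Argonaute cofactors and of the tailing genes crossed 0 under a scaling, and that of the decapping genes shrank by over 1.5 times, as given with them. Backgrounds of genes listed by symbol or with as many reads were chosen after seeing the data and left 8 members below the median. No paired analysis was possible because each group has 1 library. Few reads lie behind the hairpin loci, with 6 to 27 each, and behind PIWIL2, with 6 and 1.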
